A study of Mus musculus with 4 samples.

Results

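The distal chromosome 4 zinc-finger cluster of the mouse was described here through 7 of its genes, Zfp980, Zfp600, Zfp993, Rex2, Zfp978, Zfp991 and Zfp988, which lie between 145670697 and 147392027 on chromosome 4 (build mm10). They are 7 of 21774 protein-coding genes with a position in the annotation. The genes were selected on the peaks themselves, as zinc-finger genes under or beside blocks of high fold enrichment in a 3 Mb region of the distal chromosome, so their peak counts, folds and coverage are given as a description with no test. All peaks within the genes or within 50000 bp of them were taken, which gave 27 of 11375 peaks from the first list and 30 of 40628 from the second. The last annotated gene of the chromosome ends at 156355467, so the label distal fits the position.

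Zinc-finger proteins of this kind bind DNA through arrays of C2H2 fingers. In mice many are encoded in clusters of near-copies that grew by repeated duplication, and those with a KRAB domain recruit the co-repressor Trim28, which brings H3K9 methylation and silencing to transposable elements such as endogenous retroviruses. Because the copies of a cluster are so alike, short reads from them can be hard to place at one copy.

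The peaks come from ChIP-seq, the sequencing of DNA fragments recovered with an antibody, in wild-type mouse bone marrow pro-B cells sorted as B220+IgM-CD43+. Pro-B cells are the stage at which the immunoglobulin heavy chain is being assembled. The series comprised 4 libraries, 2 with an antibody against mouse IgD and 2 with mouse IgG as isotype control, and the series title asks about nuclear IgD and the cell cycle factor E2f3. Peaks of an IgD library over the same-numbered IgG library make up a list, and the 2 lists are called pair 1 and pair 2. All groups share the wild-type genotype. Age, strain and the number of mice per library are not stated, and no label says whether the pairs came from separate animals. No expression was measured, so the cell type could not be checked against markers.

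Each peak carries a fold enrichment, the ratio of IgD fragments to local background at its highest point (the summit), as the authors' peak caller gave it. A peak has a single fold whatever its width, so the fold of a very wide block describes its summit and not its whole length. The intervals beside folds are 95% exact Poisson intervals of the IgD fragments, for which counts were recovered from each peak's fold and p together, with the background held fixed. They cover counting error only and assume that IgD fragments were not scaled. Agreement between the lists is the only replicate check.

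IgD peaks covered nearly all of 6 of the 7 genes in both lists and left much of Zfp600 free. All 7 genes were touched by a peak in both lists, against a background of 6.28% of protein-coding genes in pair 1, 33.8% in pair 2 and 4.43% in both. At least 50% of the gene lay under peaks for 7 genes in pair 1, 6 in pair 2 and 6 in both, against 1.18%, 1.52% and 0.739% of protein-coding genes. As the rule used these peaks, nothing is read from that difference. The members are long genes, with a median length of 48.5 kb against 17.2 kb for all protein-coding genes, and a long gene meets more peaks.

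**Figure D1:**
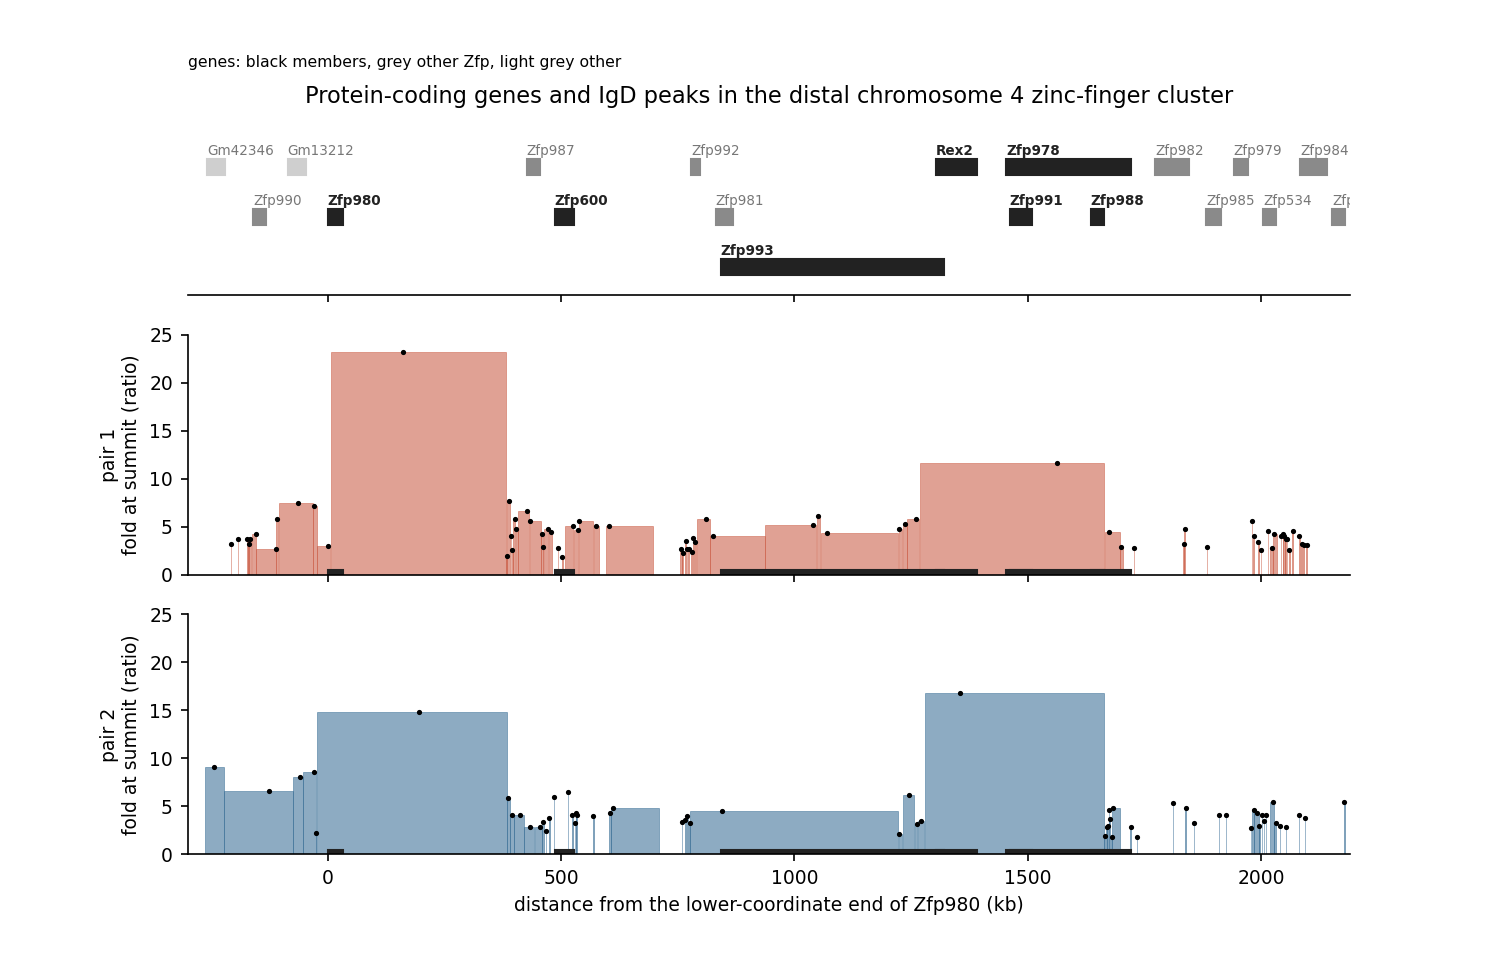
Protein-coding genes (top) and IgD peaks of pair 1 (middle) and pair 2 (bottom); the x axis is the distance in kb from the lower-coordinate end of Zfp980 and the y axis the fold at the summit. Each box spans a peak with the height of its single summit fold, dots mark summits and black bars on the axis mark the members; 2 tall blocks, with folds of 23.17 and 11.68 in pair 1 and 14.79 and 16.82 in pair 2, stand on either side of low or absent peaks around Zfp600.

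The promoters of the members were compared first, to see how alike the genes are at their starts. Gene bodies and proteins were not compared. RefSeq (GRCm38.p6, the assembly of mm10) gave promoters for 5 of the 7 genes, all on the plus strand. The 250 bases before the start are printed for the 4 that are alike, 5′ to 3′, and the capitals mark the longest run of letters common to all 4, 42 bases long.
Zfp980, chr4:145670447-145670696: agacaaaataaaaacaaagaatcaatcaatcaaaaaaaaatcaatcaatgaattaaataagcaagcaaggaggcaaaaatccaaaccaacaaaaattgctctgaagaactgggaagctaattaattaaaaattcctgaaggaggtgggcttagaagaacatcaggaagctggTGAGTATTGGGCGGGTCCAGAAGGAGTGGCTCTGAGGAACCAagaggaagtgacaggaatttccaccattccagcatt
Zfp600, chr4:146156577-146156826: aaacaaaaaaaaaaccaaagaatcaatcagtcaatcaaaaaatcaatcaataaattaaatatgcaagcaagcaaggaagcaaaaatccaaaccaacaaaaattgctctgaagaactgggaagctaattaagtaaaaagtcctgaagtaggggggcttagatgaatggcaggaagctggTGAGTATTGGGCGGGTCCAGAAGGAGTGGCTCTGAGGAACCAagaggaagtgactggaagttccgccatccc
Rex2, chr4:147021600-147021849: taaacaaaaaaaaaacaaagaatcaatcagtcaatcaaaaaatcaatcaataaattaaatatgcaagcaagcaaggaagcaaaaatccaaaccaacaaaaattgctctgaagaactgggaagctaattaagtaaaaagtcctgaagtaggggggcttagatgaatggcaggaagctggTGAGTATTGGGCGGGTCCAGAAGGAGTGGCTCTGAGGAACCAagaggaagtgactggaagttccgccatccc
Zfp988, chr4:147305354-147305603: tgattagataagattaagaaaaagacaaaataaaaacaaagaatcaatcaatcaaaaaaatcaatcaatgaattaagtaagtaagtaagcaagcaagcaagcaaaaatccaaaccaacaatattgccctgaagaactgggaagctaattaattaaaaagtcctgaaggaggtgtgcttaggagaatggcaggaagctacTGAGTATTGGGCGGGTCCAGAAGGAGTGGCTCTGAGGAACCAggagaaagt

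The Zfp600 and Rex2 promoters were near-copies, with 249 of 250 aligned positions identical (99.6%), although the genes lie 774854 bp apart. Zfp980 was 90.8% identical to Rex2 and 90.4% to Zfp600. Zfp988 was 88.0% identical to Rex2 and 89.2% to Zfp980. Zfp993, known from a predicted transcript, did not align over 150 positions with any of the 4. The second annotated start of Zfp600 aligned over that length with 2 of the 4, Zfp980 (52.1% identical) and Zfp988 (53.4%). Much the same values were seen for other pairs of the region, for example 52.2% between Zfp985 and Zfp933. No likeness is read from them. The run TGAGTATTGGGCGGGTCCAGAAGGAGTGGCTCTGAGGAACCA, searched on both strands, occurred in 6 of 32851 RefSeq promoters (0.018%), all in the 3 Mb region. Besides the 4 printed these were Zfp982 and Zfp985. The GC content of the 4 printed stretches ran from 36.8% to 40.8%, against a median of 52.4% over all promoters.

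Promoters with nearly the same letters lay under a block at one gene and free at another. The promoters of Zfp980, Rex2 and Zfp988 lay wholly under peaks in both lists. That of Zfp600 had no covered base in either list. In pair 1 the nearest peak ended 5239 bp before it, and in pair 2 a peak of 948 bp with a fold of 5.95 ended 411 bp before it. Of the 6 promoters with the 42-base run, 3 were wholly covered in both lists and 3 were free in both, the latter being Zfp600, Zfp982 and Zfp985. Zfp979 (also named Ssm1b, a modifier of transgene methylation), whose promoter was 98.8% identical to that of Rex2, was free in both lists too. How reads from near-identical copies were placed is not given in the sources used here, and its part in these values was not tested.

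**Figure D2:**
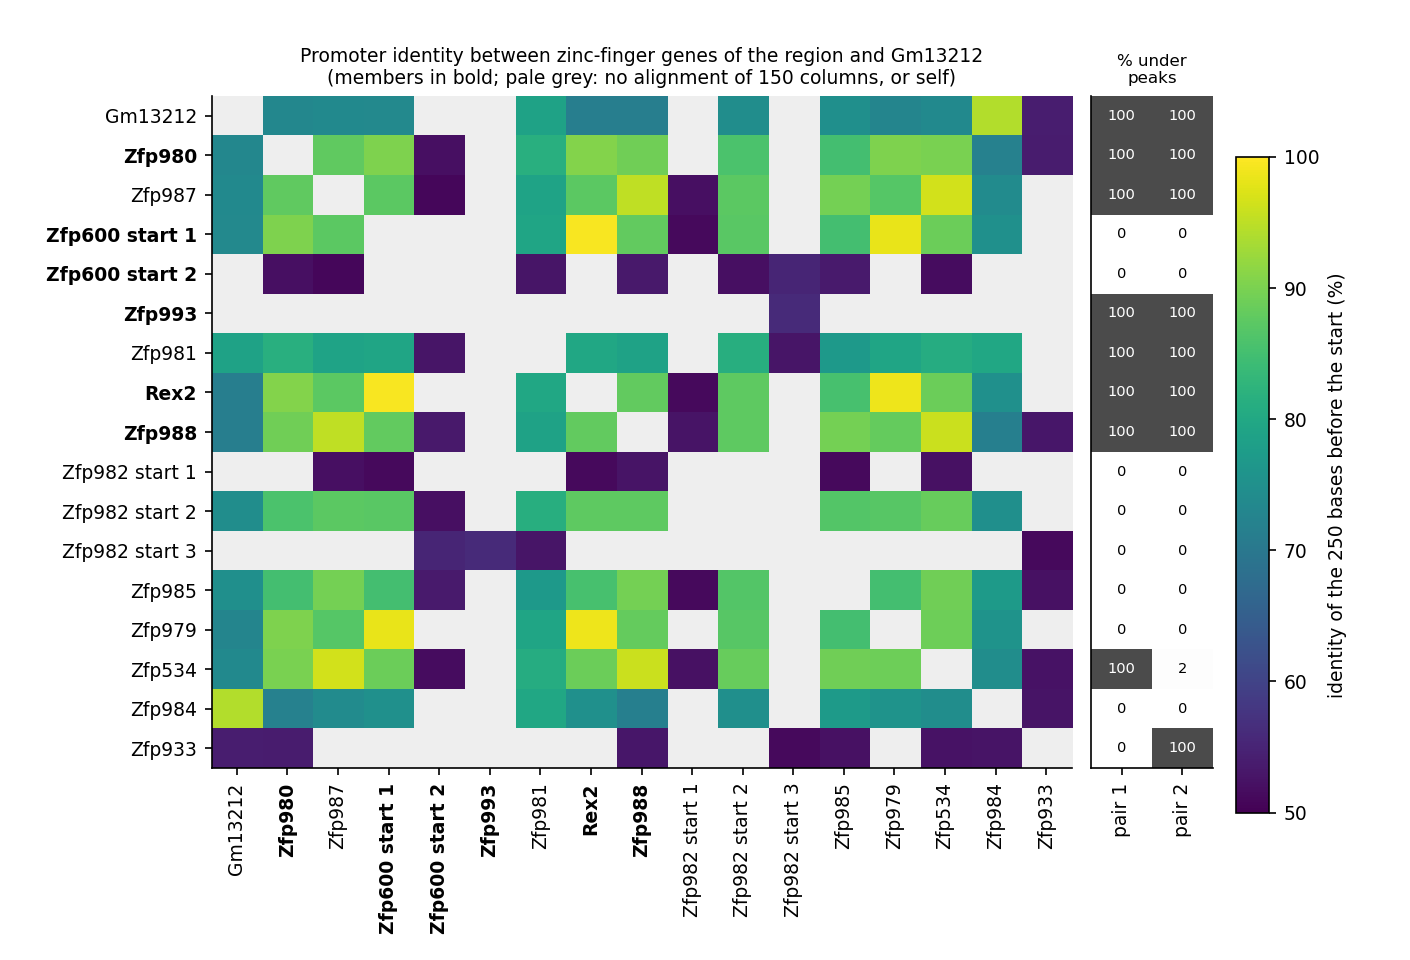
Identity in percent between the 250 bases before the start for 17 annotated starts of zinc-finger genes of the region and Gm13212, in chromosomal order, with the share of each promoter (250 bases before to 50 after the start) under peaks in both lists at the right. Rex2 and the first start of Zfp600 are 99.6% identical, yet the first is 100% and the second 0% covered.

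Zfp980, at the lower-coordinate end, lay under the block with the highest fold of the pair 1 list. In pair 1 the gene was 98.2% covered by 2 peaks, a 28.3 kb peak (fold 3.0, interval 2.09 to 4.18) over its start and the 375 kb block from 145677545 to 146052156 over the rest. The fold of the block was 23.17 (18.58 to 28.55), from 86 IgD fragments over a background of 2.76. The stretch left free was the 593 bp between those peaks. In pair 2 a single 407 kb block from 145647464 to 146054562 covered 100% of the gene, with a fold of 14.79 (11.95 to 18.10), from 92 fragments over a background of 5.29.

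The ends of this block on the far side differed by 2.41 kb between the lists and the ends on the near side by 30.1 kb, where pair 1 broke the block into a further peak. The fold intervals of the lists did not overlap. The summits lay 35.3 kb apart, at 145831308 within the pseudogene Znf41-ps in pair 1 and at 145866600 in no annotated gene in pair 2. Both are over 100 kb from Zfp980, so the high folds are not values at the gene itself. The nearest summit to the start of Zfp980 was that of the 28.3 kb peak of pair 1, 86 bp away, with a fold of 3.0. In pair 2 the nearest was 23777 bp away.

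Rex2, Zfp991 and Zfp988 lay under 1 shared block on the other side of the cluster. The pair 1 block ran from 146939045 to 147334291 (395 kb) with a fold of 11.68 (9.60 to 14.08), from 108 fragments over a background of 8.33. The pair 2 block ran from 146950502 to 147333911 (383 kb) with a fold of 16.82 (13.47 to 20.75), from 85 fragments over 4.11. Rex2 and Zfp991 were 100% covered in both lists. Zfp988 was 100% covered in pair 1 and 99.5% in pair 2, where the block stopped 156 bp short of the gene's higher end.

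The right limits of this block agreed within 380 bp and the left limits within 11.5 kb. Its summits were 207 kb apart, at 147232065 within Zfp978 in pair 1 and at 147025032 within Rex2 in pair 2. The pair 2 summit was 3182 bp from the annotated start of Rex2, while the nearest pair 1 summit was 90050 bp from it. At these separate summits pair 1 had more IgD fragments than pair 2 but also more background. Library totals were not used, so nothing is read from the difference in counts. The pair 1 fold was lower, with an upper bound of 14.08 above the pair 2 lower bound of 13.47. Since 1 peak per list covers Rex2 and Zfp991 wholly, Zfp988 wholly or nearly so, and parts of Zfp993 and Zfp978, these 5 genes have the same highest fold and are not separate measurements.

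Zfp993 spans 479 kb in the annotation and overlaps Rex2 by 17862 bp. It was 98.1% covered in pair 1 by 8 peaks and 98.8% in pair 2 by 6. Its longest free stretch was 2.21 kb in pair 1 and 1.81 kb in pair 2. The lower-coordinate part of the gene was broken differently in the lists. Pair 2 had a single block from 146447136 to 146893496 (446 kb, fold 4.49, interval 3.57 to 5.58), which 8 pair 1 peaks met. The widest of these were blocks of 118, 110 and 165 kb with folds of 4.06 (3.01 to 5.35), 5.17 (3.35 to 7.64) and 4.31 (2.91 to 6.16). The fold intervals of these 4 wide blocks overlap. Among the narrower pair 1 peaks, one of 28.2 kb just below the gene had a fold of 5.85 (4.50 to 7.49). Another of 6.54 kb inside it had a fold of 6.12 (3.94 to 9.14). The pair 2 block and the third pair 1 block ended 1.48 kb apart.

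Background at the summits of the wide blocks over this part of Zfp993 varied from block to block. The pair 2 summit had 80 IgD fragments over a background of 17.0. In pair 1 the first block had 48 over 11.1, the next 23 over 3.65 and the last 28 over 5.73. The summit of that first block, at 146495283 within the pseudogene Vmn2r-ps16, lay below the lower-coordinate end of Zfp993. The commonest background in the lists, taken as the floor, was 2.756 in pair 1 and 2.699 in pair 2. Local background is drawn from the IgG library, so a value above the floor is IgG signal at that place if the caller ran with the control as the labels pair them. Among peaks of the member windows, 13 of 27 (48.1%) in pair 1 and 23 of 30 (76.7%) in pair 2 had a background over 1% above the floor. Over the whole lists it was 22.3% and 29.6%. The highest background in the windows was 17.7 in pair 1 and 19.4 in pair 2. The part of this IgG signal in the folds was not tested.

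Zfp978 (267 kb) contains Zfp991 and Zfp988 within its limits and was 92.4% covered in pair 1 by 3 peaks and 88.9% in pair 2 by 9. Most of it lay under the block shared with Rex2. Beyond that block pair 1 had 2 peaks, of 30.8 and 6.71 kb, with folds of 4.44 (3.34 to 5.80) and 2.93 (1.54 to 5.16), and pair 2 had 8, of 641 bp to 17.7 kb, with folds from 1.77 to 4.86. At the higher-coordinate end both lists stopped before the gene did. The last stretch, 17.1 kb in pair 1, was free, and in pair 2 the longest free stretch of 21.6 kb lay there, followed by a peak of 780 bp. In the 50000 bp beyond Zfp978, 1.12% of the sequence was covered in pair 1 and 1.15% in pair 2, so the covered domain ended inside the gene in both lists.

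Zfp600 (146156827 to 146198756) was the least covered member in both lists. In pair 1, 50.6% of it was covered by 4 peaks, with folds of 1.82 (1.27 to 2.53), 2.81 (1.65 to 4.53), 4.63 (3.0 to 6.85) and 5.06 (3.11 to 7.84), and the widest was 18.2 kb. In pair 2, 3.55% was covered by 2 peaks of 532 and 958 bp, with folds of 6.49 (4.21 to 9.60) and 4.05 (2.34 to 6.62). The first 7199 bp of the gene were free in pair 1 and the first 28.4 kb in pair 2. In all, 49.4% of Zfp600 lay under no peak of either list. Its nearest summits in the lists, at 146195853 and 146195125, were 728 bp apart near the higher-coordinate end.

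The flanks of Zfp600 differed between the lists as well. On the lower side 82.5% of 50000 bp was covered in pair 1 and 57.5% in pair 2, and on the higher side 96.4% and 4.67%. In pair 1 the higher side carried peaks of up to 31.1 kb with folds of 4.63 to 5.59. In pair 2 the same stretch held 4 peaks of 527 to 663 bp with folds of 3.24 to 4.33. The pair 2 folds there were below those of pair 1, but the intervals overlap, since the lowest pair 1 fold has an interval of 3.0 to 6.85 and the highest pair 2 fold one of 2.54 to 6.96.

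**Figure D3:**
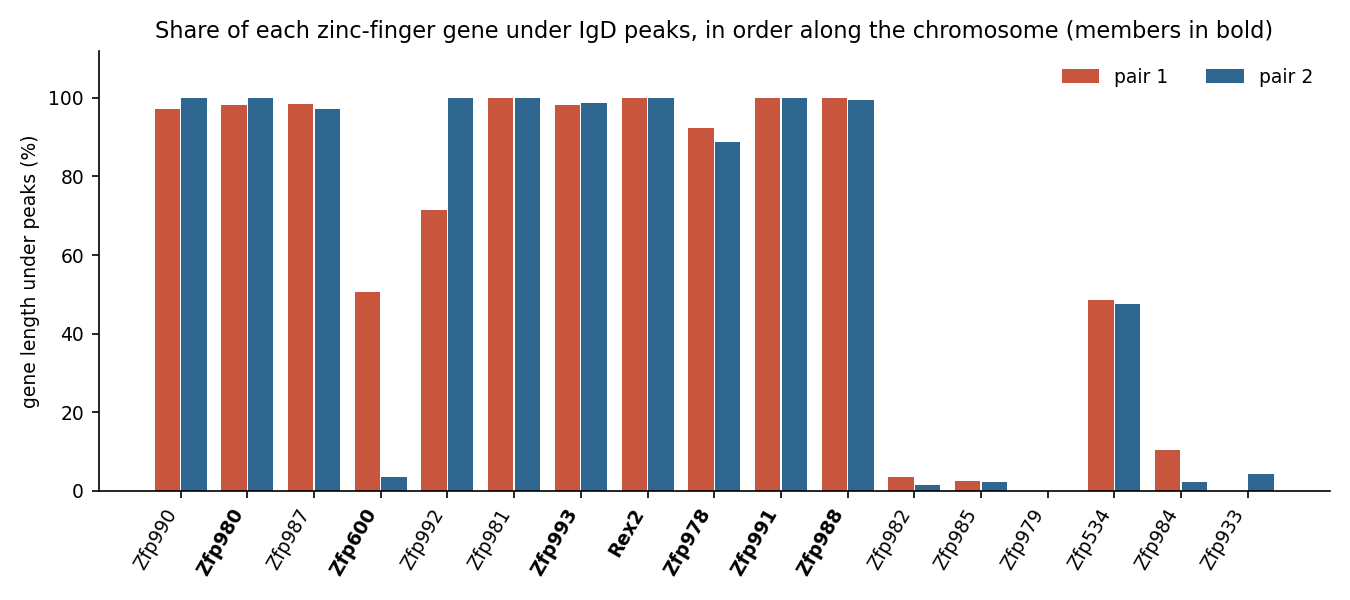
Share of gene length under IgD peaks in percent (y axis) for the 7 members and the 10 other Zfp genes of the 3 Mb region, in order along the chromosome; bars are single values for pair 1 and pair 2. Zfp600 is at 50.6% and 3.55%, the other members are between 88.9% and 100%, and the genes from Zfp982 on are between 0% and 48.6%.

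Neighbouring zinc-finger genes that are not members were covered in part. Of 10 other genes with a Zfp symbol in the 3 Mb region, 4 were at least 50% covered in both lists and 8 were touched in both. The covered genes were Zfp990 (97.2% in pair 1 and 100% in pair 2), Zfp987 (98.4% and 97.1%), Zfp992 (71.4% and 100%) and Zfp981 (100% in both), which lie among the members or just below Zfp980. Beyond the higher end of Zfp978, coverage was 3.58% and 1.53% at Zfp982, 2.41% and 2.34% at Zfp985, and 10.5% and 2.12% at Zfp984. At Zfp933, next to the end of the cluster, coverage was 0% in pair 1 and 4.30% in pair 2, and at Zfp979 it was 0% in both. Zfp534 was 48.6% and 47.6% covered, with folds up to 4.53 and 5.41.

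Of 11 protein-coding genes of the region without a Zfp symbol, Rex2 left aside, 2 were touched in pair 1, 6 in pair 2, 2 in both and 5 in neither. At least 50% of the gene was covered for 1 in pair 1, 2 in pair 2 and 1 in both. Gm13212, with a provisional name and a promoter 71.4% identical to that of Rex2, was 100% covered in pair 1 and 96.2% in pair 2. Gm42346 was 0% covered in pair 1 and 97.9% in pair 2. Tnfrsf8, which encodes the receptor CD30, had 0% and 1.52%. Fv1, a restriction factor against murine leukaemia virus, and Mfn2, a gene of mitochondrial fusion, were free in both. The nearest protein-coding genes outside the 375 kb and 407 kb blocks were Gm13212 below, 52.2 and 22.1 kb away, and Zfp987 above, 45.2 and 42.7 kb away. Outside the blocks over Rex2 they were Zfp981, 400 and 411 kb below, and Zfp982, 109 kb above the blocks of both lists.

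Gaps between successive peaks were short, so the peaks formed long runs. Joined over gaps of up to 5000 bp, a spacing chosen after the peaks were seen, pair 1 had a run of 653 kb from 145498431 to 146151337 that held Zfp980 and a run of 938 kb from 146436412 to 147374903 that held or touched Zfp993, Rex2, Zfp978, Zfp991 and Zfp988. In pair 2 the runs were 731 kb long, from 145407986 to 146139091, and 932 kb long, from 146436637 to 147368528. Both ends of the second run agreed within 10 kb. Peaks took up 97.1% to 98.3% of the length of these 4 runs. The higher-coordinate part of Zfp600 lay in a separate run of 77.5 kb in pair 1, from 146173786 to 146251314, and no run of 50 kb or more touched the gene in pair 2. With joins over 2000 bp the second run of pair 1 fell into 2, of 435 and 440 kb.

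The lists covered much the same bases of the member windows. The windows made up 1254850 bp, of which pair 1 covered 1142485 bp (91.0%), pair 2 covered 1059554 bp (84.4%) and both covered 1042330 bp. The shared part was 91.2% of the pair 1 coverage and 98.4% of the pair 2 coverage. Over the rest of chromosome 4, between its first and last genes and outside the 3 Mb region, pair 1 covered 1.19% and pair 2 covered 2.41%, and the shared part was 46.8% and 23.1% of the coverage. With 91.0% and 84.4% of the windows covered, a large shared part follows from the coverage alone. The windows were also chosen on these peaks, so no agreement is read from this contrast. Within the window of Zfp600 alone the shared part was 26.1% of the pair 1 coverage and 88.9% of the pair 2 coverage.

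Peaks overlapped between the lists, but their summits did not coincide. In the windows 23 of 27 pair 1 peaks (85.2%) and 26 of 30 pair 2 peaks (86.7%) overlapped a peak of the other list by at least 1 bp. Over whole lists the shares were 27.5% and 6.76%. Peaks covered 91.0% of the windows in pair 1 and 84.4% in pair 2. Most window peaks would thus meet the other list wherever they lay, and no agreement is read from these shares. Wider peaks overlap more often, and among peaks of 5000 bp or wider the shares were 21 of 22 and 11 of 11 in the windows, against 73.6% and 58.3% in the lists. No window peak had a summit within 200 bp of a summit of the other list. The share over whole lists is not given here, so this is not read as a trait of the windows. The closest were 396 bp apart, at 145641089 and 145641485 below Zfp980.

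Some of the widest peaks of each list lay wholly or partly in the windows. Of 68 pair 1 peaks of 100 kb or wider, 5 did so, and of 79 in pair 2, 3 did. The Zfp980 blocks of both lists ran beyond the window of Zfp980, which ends at 145754437. The windows held 2.59% of all sequence covered in pair 1 and 32.1% of that on chromosome 4, and in pair 2 the shares were 1.40% and 19.6%. By fold, the Zfp980 block ranked 1 of 11375 in pair 1 and 5 of 40628 in pair 2, and the Rex2 block ranked 5 and 4. By width they ranked 13 and 11 in pair 1 and 17 and 19 in pair 2. The widest pair 2 peak of the windows, over Zfp993, ranked 13 by width and 12047 by fold, so width and fold did not go together at every block.

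**Figure D4:**
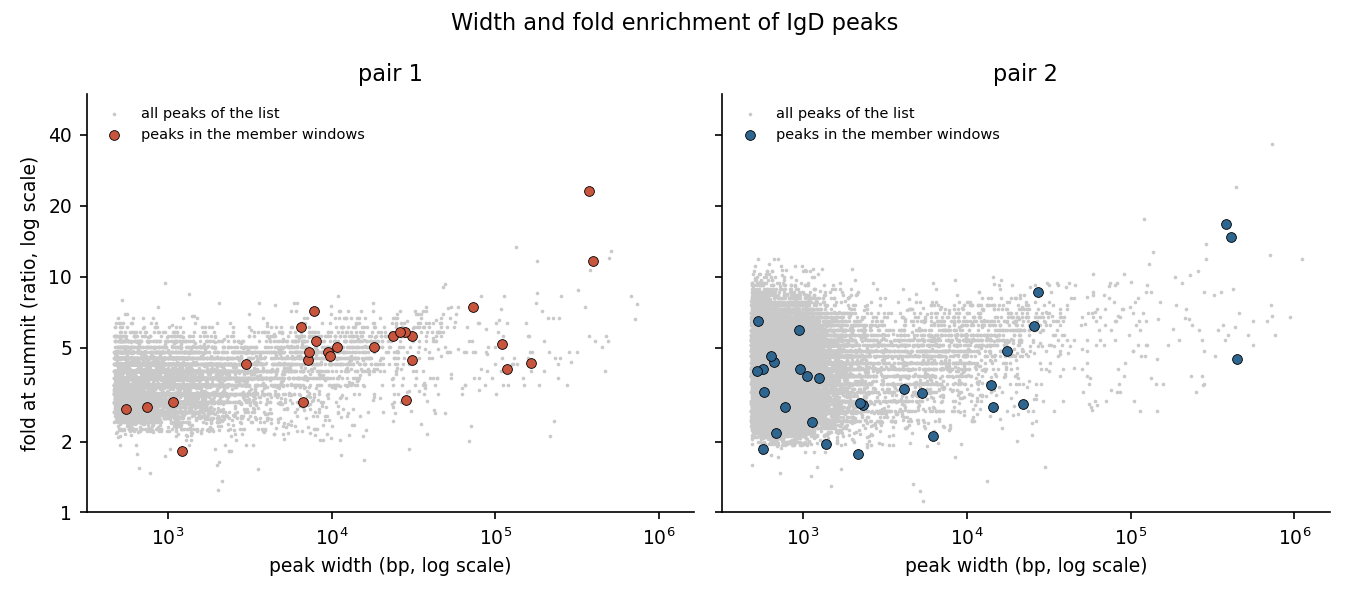
Width (x axis, bp, log scale) and fold at the summit (y axis, ratio, log scale) of all peaks of each list (grey) and of the peaks in the member windows (coloured). In each list 2 coloured points, the blocks at Zfp980 and Rex2, lie above a fold of 10, and the other window peaks lie between 1.77 and 8.59.

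No other cluster of at least 6 genes with a Zfp symbol, by the rule given below, carried such a block. Zinc-finger genes with other symbols, as Rex2 has, were not counted, so clusters made up of them may be missed. Of 384 genes with a Zfp symbol outside the region, 16 (4.17%) were touched in pair 1, 122 (31.8%) in pair 2 and 9 (2.34%) in both. Among all protein-coding genes the shares were 6.28%, 33.8% and 4.43%. At least 50% covered in both lists was 1 gene, Zfp640 on chromosome 13 (83.1% and 100%), named after its values were seen. Zfp640 lay outside the clusters counted next. Clusters of at least 6 Zfp genes with gaps of at most 250 kb numbered 11 elsewhere. Their covered length ran from 0% to 1.15% in pair 1 (median 0%) and from 0% to 2.24% in pair 2 (median 0.970%), and no peak in them was wider than 1.57 kb. By the same rule the cluster from Zfp992 to Zfp933 on chromosome 4 was 67.9% and 67.6% covered. That cluster begins at 146449030, so it leaves out Zfp980, Zfp600 and the Zfp980 block. Rex2, within its limits, is not counted among its genes. The chromosome 4 genes were chosen on these blocks, so the high share there follows from the rule. Genes of a cluster also share blocks, and the contrast was not tested.

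**Figure D5:**
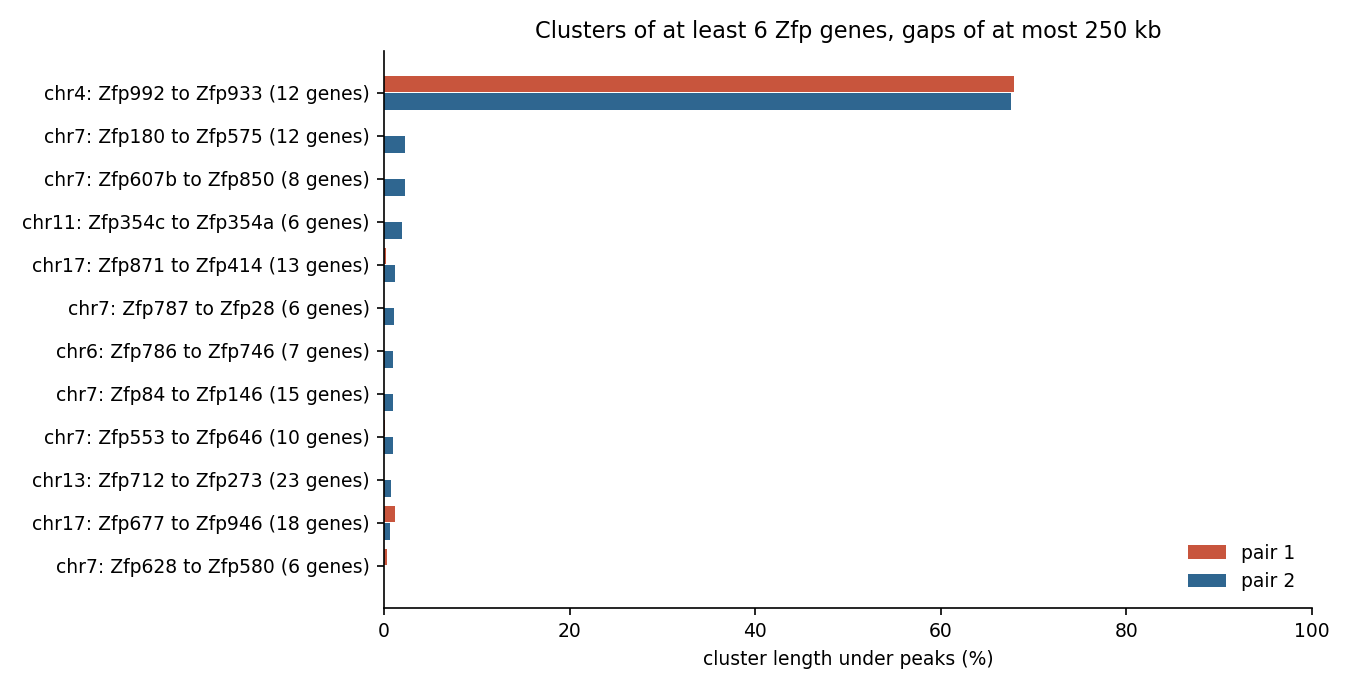
Share of cluster length under peaks in percent (x axis) for clusters of at least 6 Zfp genes; bars are single values for pair 1 and pair 2. The chromosome 4 cluster, from Zfp992 to Zfp933 and so without Zfp980 and Zfp600, is at 67.9% and 67.6%, and the other 11 are at 2.24% or below.

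Genes of the KRAB co-repressor machinery, which acts with zinc-finger proteins of this kind, showed no blocks. Of 23 listed genes, 3 (13.0%) were touched in pair 1 (Dnmt3a, Daxx and Uhrf1), 8 (34.8%) in pair 2 and 0 in both, against 6.28%, 33.8% and 4.43% of all protein-coding genes. The pair 2 share is near the background. The listed genes are longer than most, with a median of 33.7 kb against 17.2 kb, and a long gene meets more peaks. Nothing is read from the pair 1 share. The 3 highest folds, all in pair 2, were 5.14 (3.15 to 7.96) at Smarcad1, a chromatin remodeller, 4.33 (2.54 to 6.96) at Trim33, and 4.07 (2.39 to 6.55) at Setdb1, an H3K9 methyltransferase. Trim28 itself had a pair 2 peak of 571 bp with a fold of 3.15 (1.74 to 5.32) and no pair 1 peak. The widest peak at any of the 23 genes was 1574 bp, at Setdb1.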

How the data were processed

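ChIP-seq peaks of 2 IgD libraries, each against the mouse IgG library of the same number, were used. Sample titles gave the groups and numbers. Build mm10 and the tools ChIPseeker, MACS2 and HISAT2 are named, without versions or settings, in the submitters' processing notes. How multi-mapping and duplicate reads or excluded regions were treated is not given in the sources used here. Fold enrichment (a ratio), -log10 p and -log10 q of each peak were deposited by the authors. The integer score, also deposited by the authors, was not used. Library totals were not used here.

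Gene positions came from NCBI RefSeq on GRCm38.p6, which lists no exons, so exon or intron was not assigned. Left out were 402 entries outside the assembled chromosomes, and 49595 genes remained, 21774 of them protein-coding. Covered length was counted in bp per list. IgD fragments x and background b at each summit were solved from fold = (x + 1) / (b + 1) and the Poisson upper tail, and all peaks had a solution within 0.01 of the deposited -log10 p. Promoters were compared by global alignment with free end gaps. The interval arithmetic and the solution were tested on simulated data. No test between groups was run, as the members were chosen on these peaks. Members and lists were chosen with earlier results of these data known. Named genes are the members, the other Zfp genes of the region, the genes next to blocks of 100 kb or wider, and the 3 co-repressor genes with the highest fold; any other gene was named after its values were seen. Alternatives were stricter q and fold thresholds, other flanks, other definitions of overlap and each list alone. Python 3.11.15, numpy 2.4.6, pandas 2.3.3, scipy 1.17.1, biopython 1.88 and matplotlib 3.10.9 were used.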

Additional observations from a re-analysis of the deposited data

How the results depend on the processing

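All 7 members were touched in both lists at a -log10 q of at least 5, at a fold of at least 5 and in each list alone, but 3 members, Zfp600, Zfp993 and Zfp978, had a summit inside the gene in both. The count of members at least 50% covered in both lists stayed between 5 and 7. The 57 peaks of the windows in both lists together fell to 36 at a -log10 q of at least 5, to 19 at a fold of at least 5 and to 33 with no flank, and rose to 84 with flanks of 100000 bp. Each list alone gave 27 to 30. Bases covered in both lists fell from 1042330 to 510092 at a fold of at least 5, where Zfp993 was covered by 42.3% in pair 1 and 13.9% in pair 2. The highest fold was 16.82 to 23.17 with either list left out. The 23 shared pair 1 peaks fell to 6 with 50% reciprocal overlap and to 0 with summits within 200 bp. Zfp genes elsewhere touched in both lists fell from 9 to 1 at a -log10 q of at least 5, an alternative chosen after seeing the data. The causes of these shifts, beyond the fewer peaks or bases each setting keeps, were not tested. No paired analysis was possible because each list already compares the IgD and IgG libraries of 1 number and no test was run.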

Other observations

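Pseudogenes shared the blocks with the zinc-finger genes. Of 56 pseudogenes in the 3 Mb region that holds the cluster, 37 were at least 50% covered in both lists, 34 of them wholly, and 11 were free in both. Among 28 protein-coding genes 11 were at least 50% covered in both and 3 wholly. Shares over all pseudogenes of the annotation are not given here. Lengths differ too, from 0.269 kb at Vmn2r-ps18 to 479 kb at Zfp993, and a short gene is more easily covered wholly. Nothing is read from the difference between the classes. Vomeronasal receptor pseudogenes, relicts of pheromone receptor genes, lay among the members. Vmn2r-ps15, 74.2 kb long and next to Zfp980, and Vmn2r-ps18, within Zfp978, were 100% covered in both lists. Vmn2r-ps17, which spans Zfp600, was 68.0% covered in pair 1 and 11.1% in pair 2, a split like that of Zfp600 itself. Vmn2r-ps19 and Vmn2r-ps20, beyond Zfp978, were free in both.

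A stretch of 214 kb with no annotated gene of any class, from 145844732 to 146058773, lay mostly under the Zfp980 block, which ended at 146052156 in pair 1 and 146054562 in pair 2. Counting all peaks, 99.5% of it was covered in pair 1 and 99.4% in pair 2. The pair 2 summit of that block lay in it. Which sequence fills this stretch was not analysed here.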
